A study of Mus musculus with 8 samples.

Results

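The genes described here encode G protein-coupled receptors through which angiotensin II, endothelin, noradrenaline, vasopressin, serotonin and thromboxane contract arteries. They were chosen by name, 10 in all, and 7 had a value among the 19938 genes measured: Htr2a, Adra1b, Tbxa2r, Avpr1a, Ednrb, Agtr1a and Htr2b. Ednra, Adra1a and Adra1d were not analysed here. The samples were primary smooth muscle cells from the aorta of C57Bl6 mice. They were used in passages 3 to 4 and kept for 24 h in DMEM with 10% FCS. Of the 8 samples, 4 were given 100 nM jasplakinolide and 4 were not (control). Jasplakinolide is a cell-permeable compound from a marine sponge that binds actin filaments and stabilises them. RNA of each sample was hybridised to 1 Affymetrix array, and all values are log2 RMA expression levels, in which 1 unit is a 2-fold difference. Whether replicates stem from separate cultures or animals is not given in the labels, so the p-values refer to the spread among these arrays, part or all of which may be technical.

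Constrictor receptors of smooth muscle mostly couple to the G proteins Gq and G11. These activate phospholipase C, whose product inositol trisphosphate releases calcium from internal stores, while diacylglycerol activates protein kinase C. Many of them also couple to G12 and G13. In intact arteries Agtr1a, Ednra and the alpha1-adrenergic receptors are typical of contractile smooth muscle, whereas Ednrb is best known from endothelium, where it stimulates the release of nitric oxide.

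No constrictor receptor was called different between jasplakinolide and control cells. None of the 7 passed the test (limma, adjusted p under 0.05 over all genes), against 0.772% of all genes (0.436% higher and 0.336% lower). None had an unadjusted p under 0.05 in this fit, which 8.87% of all genes had. With same-numbered arrays paired 1 receptor did, Htr2a, and the share of all genes was not computed for that fit. None had groups that did not overlap, as 6.91% of all genes did. The group means were higher with jasplakinolide for 5 receptors and lower for 2. Their median log2 difference was 0.05, against 0.01 over all genes. The median size of the difference, regardless of sign, was 0.07 among the receptors and 0.05 over all genes. The 95% intervals of all 7 differences lay within 0.37 of 0 on the log2 scale, a 1.29-fold difference in either direction. Each interval stands alone and was not adjusted for the number of genes, and 4 arrays per group limit its precision.

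The 8 arrays had medians of 7.30 to 7.39 over all probe sets. On the first principal component, jasplakinolide 4 and control 2 lay at one end (19.4 and 12.1) and controls 1 and 3 at the other (-13.4 and -14.3). The remaining arrays lay between -4.64 and 4.71. Cultures labelled as smooth muscle carried markers of smooth muscle and of endothelium alike. Among the brightest 10% of genes were 5 of 10 smooth muscle markers and 5 of 10 endothelial markers. All 20 lay above the level that 95% of olfactory receptor genes stayed under. So did 6 of 6 pericyte, 6 of 6 macrophage, 4 of 6 fibroblast and 3 of 4 Schwann cell and melanocyte markers. That level is low: Avpr1a, with a mean of 6.74 log2 just under it, was brighter than 30.8% of genes. Olfactory receptors, 1027 genes, serve here as a guide to the signal of probe sets without much target. That most of them are unused in vessel wall cells was assumed and not tested. Probe sets bind with different strength, so their place against this guide does not rank expression between genes. Of the receptors, 3 had a mean above 6.76 log2, under which 95% of the olfactory genes lay, and 4 had a mean at or under it. A lack of difference in those 4 describes their signal, and no detection calls were used here to separate it from background. The same limit holds for what is said below of Cdh19, Dpt, Grk4, Tbxas1 and Htr1d, whose group means also lay under 6.76.

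Htr2a, the Gq-coupled serotonin 2A receptor that mediates the constriction of arteries by serotonin, had a signal above that of 91.9% of genes. Its levels were 11.43, 11.39, 11.13 and 10.99 log2 with jasplakinolide (replicates 1 to 4), against 11.36, 11.25, 10.97 and 10.97 in control. The groups overlapped widely, and in both of them replicates 1 and 2 stood above replicates 3 and 4. The means were 11.24 ± 0.21 with jasplakinolide and 11.13 ± 0.20 in control (SD, n = 4 each), a log2 difference of 0.10 ± 0.12 (SE; 95% interval -0.17 to 0.37; limma adjusted p = 0.920). Within same-numbered pairs the level was higher with jasplakinolide in 4 of 4, by 0.08, 0.14, 0.16 and 0.02. All 4 pairs had the same sign in 24.6% of all genes. With the replicate number as a block the interval was 0.003 to 0.20 (unadjusted p = 0.0453), and the adjusted p was 0.316 (limma), so that Htr2a did not pass. The block called 1.89% of all genes and none of the 7 receptors.

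**Figure D1:**
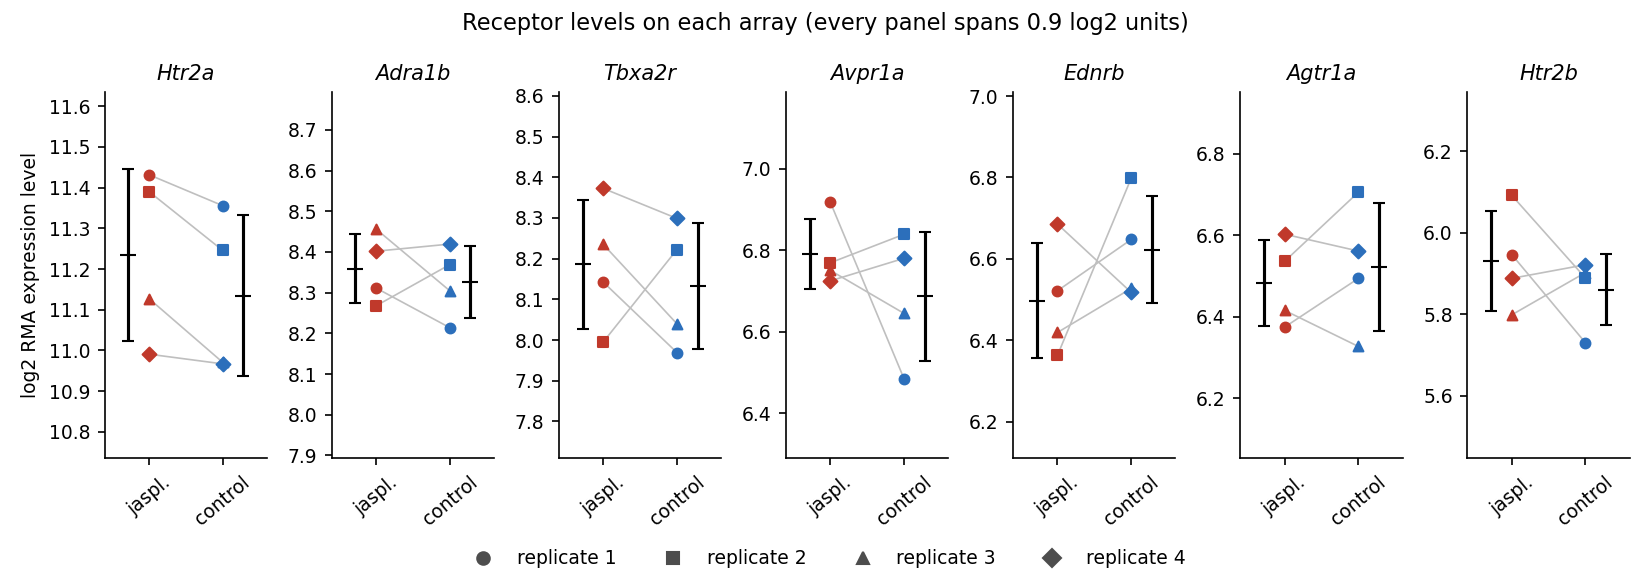
Log2 RMA expression level of the 7 receptors on each array, jasplakinolide left (red) and control right (blue); symbols give the replicate number, grey lines join same-numbered arrays, and black bars are means ± SD (n = 4). The groups overlap in every panel, and only the Htr2a lines all slope the same way, with the jasplakinolide array higher in 4 of 4 pairs.

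Adra1b, the alpha1B-adrenergic receptor for noradrenaline and adrenaline, also lay clear of the olfactory receptor signal. It was measured at 8.31, 8.27, 8.46 and 8.40 log2 with jasplakinolide, against 8.21, 8.37, 8.30 and 8.42 in control. The 2 groups covered nearly the same range, and 2 of 4 pairs were higher with jasplakinolide. The difference of 0.03 ± 0.06 (SE; 95% interval -0.11 to 0.17; limma adjusted p = 0.952) was the smallest among the receptors and the interval the narrowest.

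Tbxa2r, the thromboxane A2 receptor, which constricts vessels and aggregates platelets, had 8.14, 7.99, 8.24 and 8.37 log2 with jasplakinolide, against 7.97, 8.22, 8.04 and 8.30 in control. Levels were higher with jasplakinolide in 3 of 4 pairs and lower in the second, by 0.23. Its mean was 8.19 ± 0.16 with jasplakinolide and 8.13 ± 0.15 in control (SD, n = 4 each), and the log2 difference was 0.05 ± 0.10 (SE; 95% interval -0.16 to 0.27; limma adjusted p = 0.951).

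The other 4 receptors gave signals in the range of olfactory receptor genes. Avpr1a, the V1A vasopressin receptor, was at the upper edge of that range, with 6.92, 6.77, 6.75 and 6.72 log2 with jasplakinolide, against 6.48, 6.84, 6.64 and 6.78 in control. The control arrays spread over 0.36 and the jasplakinolide arrays over 0.19, inside the control range except for replicate 1. Its log2 difference was 0.10 ± 0.08 (SE; 95% interval -0.08 to 0.29; limma adjusted p = 0.828), and the pair numbered 1 alone differed by 0.43.

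Ednrb, the endothelin B receptor, had the largest difference of the 7 with all arrays in an unweighted fit, and 15.3% of all genes had a larger one in either direction. Other receptors exceeded it in size under several alternatives. Htr2a did so with array weights (0.27, against -0.11 for Ednrb), without jasplakinolide 3 (0.136, against -0.099) and without control 1 (0.174, against -0.117). It also did so without control 2 and jasplakinolide 4 together (0.219, against -0.130). Avpr1a was larger without control 2 (0.15, against -0.07) and Tbxa2r without jasplakinolide 2 (0.118, against -0.081). Ednrb levels were 6.52, 6.36, 6.42 and 6.69 log2 with jasplakinolide, against 6.65, 6.80, 6.53 and 6.52 in control. Lower levels with jasplakinolide were seen in 3 of 4 pairs and a higher one in the pair numbered 4. The means of 6.50 ± 0.14 with jasplakinolide and 6.62 ± 0.13 in control (SD, n = 4 each) differed by -0.13 ± 0.09 (SE; 95% interval -0.32 to 0.07; limma adjusted p = 0.785). In the same samples 9 of 10 endothelial markers had a lower mean with jasplakinolide, while the median log2 difference over all genes was 0.01. Of these markers 1, the guidance receptor gene Robo4, passed the test, where 0.336% of all genes passed as lower. Robo4 fell by 0.41 ± 0.06 (SE; limma adjusted p = 0.0170), and it passed in 4 of 8 fits without 1 array. With the replicate block 3 of the 10 fell, where 1.89% of all genes passed in either direction. The mean level of these 10 markers was 10.58 to 10.73 on the jasplakinolide arrays and 10.84 to 10.88 on the control arrays; their part in the Ednrb values was not tested. In bulk RNA, fewer cells of a type and less RNA per cell cannot be told apart. Of 4 measured markers of Schwann cells and melanocytes, which also use this receptor, none passed, and the largest differences were those of Cdh19 (-0.09 ± 0.07, SE) and Mitf (-0.06 ± 0.05, SE). None of 6 fibroblast markers (Dcn at -0.54 ± 0.12 and Dpt at -0.46 ± 0.11, SE) or 6 macrophage markers (Cd68 at -0.24 ± 0.07 and Lyz2 at 0.17 ± 0.05, SE) passed either. With the replicate block Dcn and Cd68 did (limma adjusted p = 0.0134 and 0.0424).

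By the root mean square difference of centred profiles over the 8 arrays, the genes most like Ednrb were Olfr165 (0.05 log2), an olfactory receptor, Arhgap15 (0.05), a Rac GTPase-activating protein, and Deup1 (0.05). The profile of Ednrb itself varied by 0.13 about its mean on the same scale.

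Agtr1a, the main receptor by which angiotensin II constricts arteries in mice, was measured at 6.37, 6.54, 6.42 and 6.60 log2 with jasplakinolide, against 6.49, 6.71, 6.33 and 6.56 in control. The jasplakinolide values all lay inside the range of the control values. The log2 difference was -0.04 ± 0.08 (SE; 95% interval -0.23 to 0.15; limma adjusted p = 0.959), with 2 of 4 pairs higher. Agtr1a and Ednrb both had their highest level in jasplakinolide 4 within that group and in control 2 within the controls. The other dim receptors did not: Avpr1a was highest in jasplakinolide 1 and control 2, and Htr2b in jasplakinolide 2 and control 4. The median signal of the olfactory receptor genes was highest in jasplakinolide 4 and control 2. It was 5.05 log2 in jasplakinolide 4 and 4.95 to 4.97 in the other jasplakinolide samples, and 5.04 in control 2 and 4.91 to 4.94 in the other controls. Without these 2 arrays the log2 difference was -0.02 for Agtr1a and -0.13 for Ednrb, and neither passed (limma adjusted p = 0.952 and 0.502).

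Htr2b, the serotonin 2B receptor, known from heart valves and pulmonary vessels, had the dimmest signal, above that of 79.3% of olfactory receptor genes. It read 5.95, 6.09, 5.80 and 5.89 log2 with jasplakinolide, against 5.73, 5.89, 5.90 and 5.92 in control. Control replicate 1 lay apart from the other 3 controls, and the groups overlapped. The log2 difference was 0.07 ± 0.07 (SE; 95% interval -0.09 to 0.23; limma adjusted p = 0.892). Both serotonin receptors thus had a higher mean with jasplakinolide, and neither passed.

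**Figure D2:**
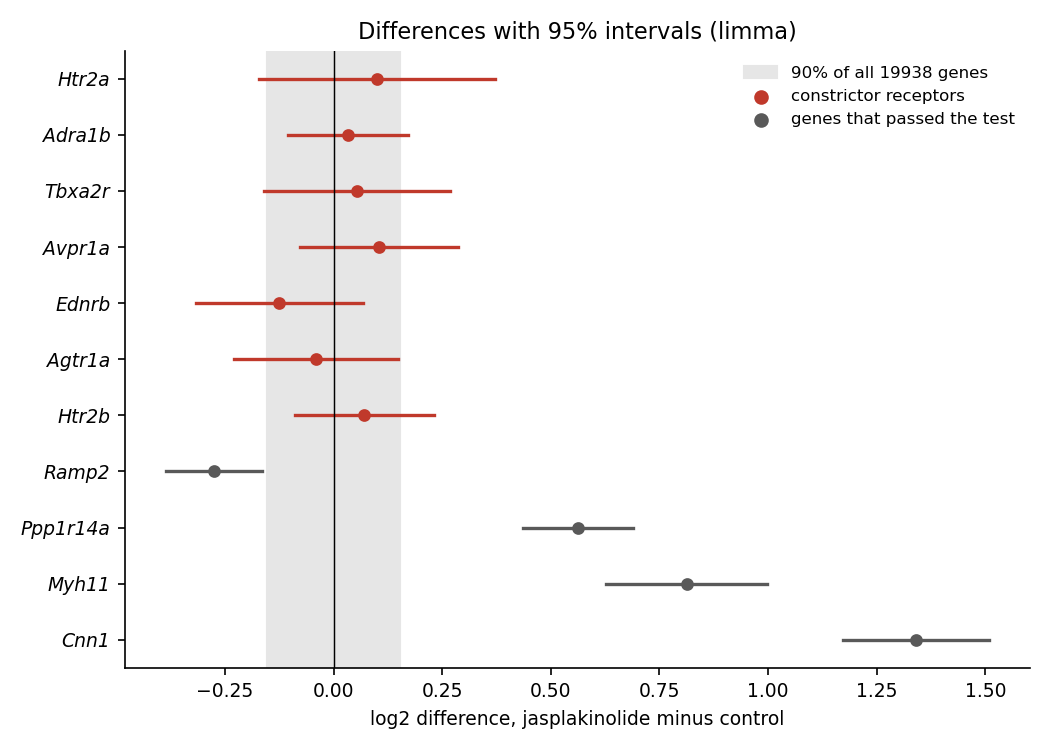
Log2 difference, jasplakinolide minus control, with limma's 95% interval, for the 7 receptors (red) and for 4 genes that passed the test (grey); the shaded band holds the differences of 90% of all 19938 genes. All 7 receptor intervals include 0. Those of Ramp2 (-0.28), Ppp1r14a (0.56), Myh11 (0.81) and Cnn1 (1.34) do not, which was fixed by choosing genes that passed.

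The same fit called differences in the contractile machinery of these samples. Of 10 smooth muscle markers, 6 rose and none fell, with a median log2 difference of 0.40, where 0.436% of all genes rose. Cnn1, which encodes calponin, rose by 1.34 ± 0.07 (SE; limma adjusted p = 0.000254), and its means were 12.48 ± 0.16 with jasplakinolide and 11.14 ± 0.05 in control (SD, n = 4 each). Synpo2, an actin-binding protein, rose by 0.98 ± 0.15, the smooth muscle myosin heavy chain Myh11 by 0.81 ± 0.08 and the actin nucleator Lmod1 by 0.68 ± 0.07 (SE; adjusted p = 0.0219, 0.00275 and 0.00275). Synpo2 lost its call in 3 of 8 fits without 1 array. Acta2, smooth muscle alpha-actin, another of the 6, lost it in all 8 (adjusted p 0.0593 to 0.128).

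The genes around the receptors were taken as 7 lists with 116 measured genes. Of these 2 passed, 1 higher and 1 lower, which is 1.72% against 0.772% of all genes, and their median log2 difference was 0.01, as over all genes. With the replicate block 6 passed, where 1.89% of all genes did. The 2 were Ppp1r14a, higher, and Ramp2, lower.

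Ppp1r14a encodes CPI-17, an inhibitor of myosin phosphatase that protein kinase C activates by phosphorylation, downstream of the receptors. It had 8.80, 8.89, 8.84 and 8.97 log2 with jasplakinolide, against 8.29, 8.41, 8.30 and 8.23 in control. All jasplakinolide arrays lay above all control arrays, and the difference of 0.56 ± 0.06 (SE; 1.48-fold; limma adjusted p = 0.00275) passed in all 8 fits without 1 array (adjusted p 0.00417 to 0.0185).

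Of 17 measured receptors and accessory proteins that relax vessels or oppose the constrictors, 1 fell and 16 did not pass, with a list median of 0.03. Ramp2, the accessory protein that makes the calcitonin receptor-like receptor respond to adrenomedullin, had 8.30, 8.27, 8.25 and 8.14 log2 with jasplakinolide, against 8.51, 8.57, 8.49 and 8.49 in control. It fell by 0.28 ± 0.05 (SE; 1.21-fold; limma adjusted p = 0.0427) with no overlap between the groups. It missed the threshold in all 8 fits without 1 array (adjusted p 0.0751 to 0.145), after median centring (0.0956) and without control 2 and jasplakinolide 4 together (0.0926). Ramp3, a second accessory protein of that receptor, and the receptor gene Calcrl were looked up after their values had been seen. Ramp3 averaged 9.55 ± 0.48 log2 with jasplakinolide and 10.13 ± 0.34 in control (SD, n = 4 each), a difference of -0.58 ± 0.24 (SE; limma adjusted p = 0.493, and 0.0151 with the replicate block). Calcrl averaged 9.80 ± 0.29 with jasplakinolide and 10.06 ± 0.05 in control (SD, n = 4 each), a difference of -0.26 ± 0.12 (SE; adjusted p = 0.601). These 3 genes are known from endothelium, and the endothelial markers given beside Ednrb lay lower in the same samples; their part in the Ramp2 values was not tested.

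None of 25 other constrictor receptors passed, with a median of -0.01. The largest differences were those of Cysltr1, a receptor for cysteinyl leukotrienes (-0.31 ± 0.13, SE), and Htr1b, the serotonin 1B receptor (0.28 ± 0.10, SE). Htr1b had 9.62, 9.62, 9.87 and 9.98 log2 with jasplakinolide, against 9.31, 9.42, 9.64 and 9.59 in control. It was higher in all 4 pairs and passed with the replicate block (limma adjusted p = 0.0424, against 0.373 without it). Lpar1 and Htr1d were looked up because they passed under other alternatives. Lpar1, a receptor for lysophosphatidic acid, differed by -0.24 ± 0.05 (SE; adjusted p = 0.0830) with groups that did not overlap. It passed among the brighter 50% of genes (adjusted p = 0.0269), with array weights (0.0265) and with a robust prior that follows intensity (0.0379). Htr1d, the serotonin 1D receptor, passed after cyclic loess (adjusted p = 0.0412).

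**Figure D3:**
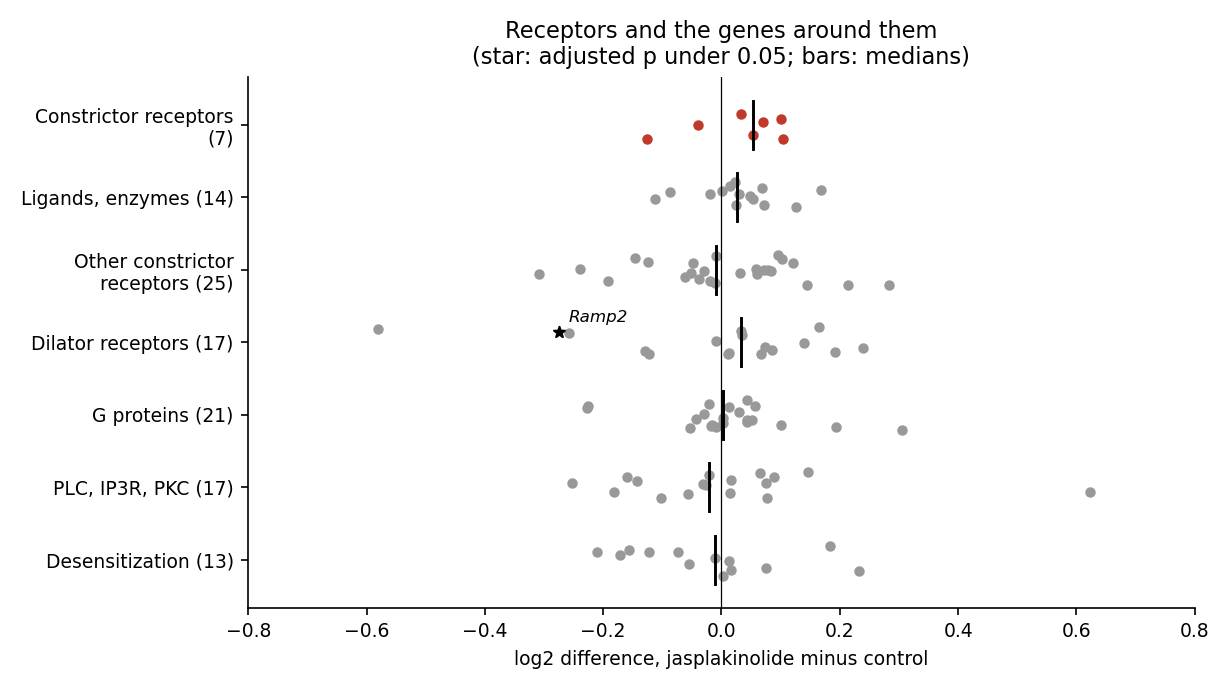
Log2 difference, jasplakinolide minus control, for each of the 7 receptors (red, top) and for the measured genes of 6 lists around them (grey), with the number of genes in brackets; black bars are medians and a star marks an adjusted p under 0.05. The medians lie between -0.02 and 0.05, and the star is Ramp2 (-0.28).

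On the ligand side none of 14 measured genes passed, with a median of 0.03. The largest differences were those of Tbxas1, thromboxane A synthase (0.17 ± 0.05, SE), and Ece2, an endothelin-converting enzyme (0.13 ± 0.07, SE). Edn1, the endothelin-1 precursor, which was looked up after its values had been seen, averaged 13.00 ± 0.05 log2 with jasplakinolide and 12.98 ± 0.02 in control (SD, n = 4 each; limma adjusted p = 0.953).

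Of 21 G protein subunits none passed, with a median of 0.003. Gnai1, a Gi alpha subunit, differed by 0.30 ± 0.07 (SE; limma adjusted p = 0.130) with groups that did not overlap. Gna14, an alpha subunit of the Gq family, differed by -0.23 ± 0.10 (SE; adjusted p = 0.536). Of 17 genes of phospholipase C, inositol trisphosphate receptors, protein kinase C and their partners none passed, with a median of -0.02.

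Trpc6, a cation channel opened by diacylglycerol, had 9.21, 8.98, 8.84 and 8.57 log2 with jasplakinolide, against 8.74, 8.25, 8.08 and 8.04 in control. Each jasplakinolide array was higher than its same-numbered control, although the groups overlapped, and the difference was 0.62 ± 0.17 (SE; limma adjusted p = 0.199, and 0.0141 with the replicate block). Dgka, a diacylglycerol kinase, differed by -0.25 ± 0.08 (SE; adjusted p = 0.242, and 0.0474 with the block).

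None of 13 measured genes of receptor desensitization and trafficking passed, with a median of -0.01. Grk4, a receptor kinase, differed by 0.23 ± 0.10 (SE). Rgs5, a GTPase-activating protein that shortens Gq and Gi signals and marks pericytes, had 7.18, 7.37, 8.29 and 8.83 log2 with jasplakinolide, against 7.60, 7.64, 8.67 and 8.61 in control. In both groups replicates 3 and 4 stood above replicates 1 and 2, the reverse of Htr2a. The log2 difference was -0.21 ± 0.39 (SE; 95% interval -1.09 to 0.67; limma adjusted p = 0.951). The mean level of 6 pericyte markers, Rgs5 among them, ranged from 8.36 to 8.90 on the jasplakinolide arrays and from 8.48 to 8.79 on the control arrays, and none passed. Notch3 had the second largest difference of them (-0.20 ± 0.04, SE; limma adjusted p = 0.0815). What separates the replicate numbers was not tested.

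**Figure D4:**
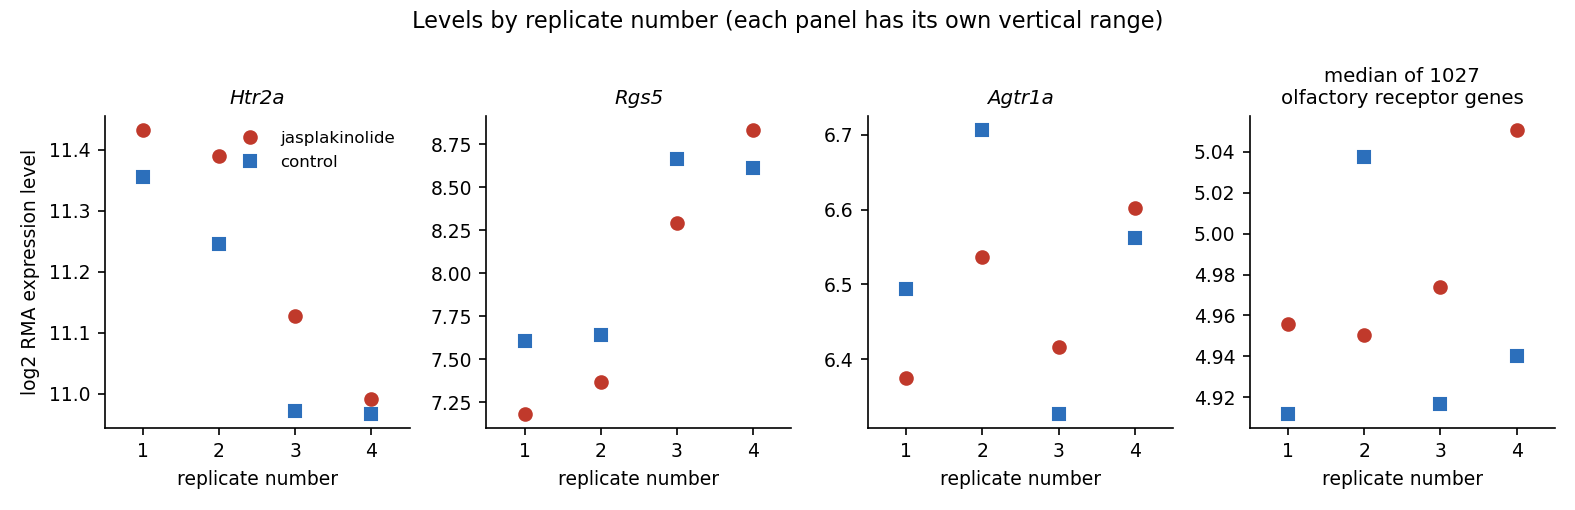
Log2 RMA expression level by replicate number for Htr2a, Rgs5 and Agtr1a and the median over 1027 olfactory receptor genes, with jasplakinolide as red circles and control as blue squares. Htr2a is higher and Rgs5 lower in replicates 1 and 2 of both groups, and Agtr1a peaks in control 2 and jasplakinolide 4, the arrays with the highest olfactory medians (5.04 and 5.05).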

How the data were processed

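The authors deposited log2 expression levels of 35556 probe sets on 8 arrays, and per the submitters' processing notes these came from RMA, run in Affymetrix Expression Console. Program versions were not stated in the labels. RMA subtracts background, quantile-normalizes the arrays and summarises probes by median polish. In RMA values the differences of dim probe sets tend to be narrowed. Probe sets with 1 gene symbol in the platform annotation (21789) were kept, and those with several (1621) or none (12146) left out. For 999 genes with more than 1, the one with the highest mean over all arrays was used, which left 19938 genes, with no filter on dim ones.

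The test was limma's moderated comparison of the 2 groups (version 3.58.1, R 4.3.3; two-sided; lmFit, then eBayes; 6 residual and 3.43 prior degrees of freedom). P-values of all genes were adjusted together by Benjamini-Hochberg, and the threshold was 0.05. The code was tested on simulated data, drawn independently with the mean and spread of each gene. There it recovered 3.35% of differences of 0.25 log2, 78% of those of 0.5 and 98.7% of those of 1. Small differences would thus mostly not be called. Receptors, gene lists and alternatives were chosen with earlier results of these data known. The text names all measured receptors. From each list it names up to 4 members past the test, or the 2 with the largest differences where none passed. It also names the 3 genes most like the receptor with the largest difference, predicted genes left out. The result of 1 list is not reported here on its own. Other genes are said to have been looked up afterwards or are named without values.

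Same-numbered arrays deviated together from their group means (correlation across genes 0.24 to 0.56 in 4 of 4 pairs, against -0.62 to 0.52 for other pairs). The ranges overlap, and control 2 went more with jasplakinolide 4 (0.52) than with jasplakinolide 2 (0.24). Pairing by number, which the labels do not give, was thus an assumption of the fit with the replicate block. The fit without the block is the main one. Plots used Python 3.11.15 and matplotlib 3.10.9.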

Additional observations from a re-analysis of the deposited data

Results flagged for a closer look

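In 62 groups of 4 arrays, 2 for each of 31 genes (the receptors and the genes taken from the lists by rule), 3 values lay far from the rest of their group, and chance marks about 1 in 20 such groups. Htr2b read 5.73 log2 in control 1, against 5.89 to 5.92 in the other controls. Cdh19, a Schwann cell marker, read 3.96 in control 3, against 4.14 to 4.16. Lmod1 read 8.15 in control 4, against 8.23 to 8.24.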

How the results depend on the processing

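None of the 7 receptors passed under any of 16 alternatives, and the lowest adjusted p of any was 0.269, that of Htr2a with array weights. Only 3 of the 7 were among the brighter 50% of genes, so the other 4 had no value there. Of 108 receptor values under the alternatives, 102 kept their sign. With array weights Adra1b was at -0.034 and Tbxa2r at -0.069. Without 1 array Agtr1a ranged from -0.105 to 0.021 (above 0 without control 2), Adra1b from -0.0050 to 0.063 (below 0 without control 1) and Tbxa2r from -0.0084 to 0.118 (below 0 without control 1, at -0.00070, or jasplakinolide 4). The others kept their sign, with Htr2a at 0.035 to 0.182, Avpr1a at 0.036 to 0.154, Htr2b at 0.017 to 0.115 and Ednrb at -0.188 to -0.067. Htr2a was at 0.266 with array weights and 0.219 without control 2 and jasplakinolide 4. The count of genes around the receptors that passed was 2. It was 6 with the replicate block, 4 among the brighter 50%, 5 with array weights and 1 after median centring, with any 1 array left out (1 to 1), or without control 2 and jasplakinolide 4 together, chosen after seeing the data. Ppp1r14a passed under all 16. The count over all genes was 154, and 377 with the replicate block, 296 among the brighter 50%, 299 after cyclic loess, 358 with an intensity trend and robust prior, 457 with array weights and 43 to 150 without 1 array. The replicate block changed no receptor call. The signal of Avpr1a, Ednrb, Agtr1a and Htr2b, within the range of olfactory receptor genes, limits what their values can show.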
